A study of Homo sapiens with 4 samples.

Results

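The APOBEC3 genes encode cytidine deaminases that turn cytosine into uracil in single-stranded DNA. The proteins restrict retroviruses and retrotransposons, and the family is also known as a source of C-to-T mutations in tumours. Primates carry the genes side by side, and interferon and NF-kB signalling are known to raise several of them. The members were taken by their symbols, and all 7 of them, APOBEC3A, APOBEC3B, APOBEC3C, APOBEC3D, APOBEC3F, APOBEC3G and APOBEC3H, had a row among the 60617 Ensembl gene IDs of the deposited table. The family was chosen by the measured levels of APOBEC3C, which stood 7th from the PC3 end among 10121 genes with a symbol and at least 5 FPKM when untreated 22Rv1 was set against untreated PC3. The 8 leading genes had been taken there, of which PLAU was the last at a log2 ratio of -8.35, and FOSL1 was just outside at -8.12. The difference between the lines is therefore given as a description, with no test.

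The 4 libraries were 22Rv1 with 75 µM morusin, 22Rv1 untreated, PC3 with 46 µM morusin and PC3 untreated, each 1 library after 6 h. Morusin is a prenylated flavone of mulberry root bark. 22Rv1, a human prostate cancer line grown out of a mouse xenograft, was kept in RPMI medium. PC3 comes from a bone metastasis of prostate cancer and was kept in F12 medium, so line, medium and dose cannot be told apart. No difference has a replicate check, apart from the response shared by the lines. Depth, inferred from the steps between low values, was 19.1 M read pairs for treated and 23.4 M for untreated 22Rv1, and 28.6 M for treated and 40.6 M for untreated PC3. Only 57 to 81 of the 2098 to 2409 nonzero single-exon gene values in a library lay at the step, which makes the depths rough. A further 41 to 58 lay at the halved step, and if that step is 1 read pair, all depths and pair counts here are 2 times those given and the limits are lower by the same factor. Intervals and limits drawn from them cover counting error only. Of 8 luminal prostate markers, 0 were under 1 FPKM in either 22Rv1 library, against 5 in each PC3 library. Most of these markers were thus low in PC3. HOXB13 went the other way, at 86.5 FPKM in untreated 22Rv1 and 175 FPKM in untreated PC3. Of 4 epithelial markers the keratin genes KRT8 and KRT18 were at 103 to 137 FPKM in every library. EPCAM was at 25.1 FPKM in untreated 22Rv1 and 10.6 FPKM in untreated PC3, and the E-cadherin gene CDH1 at 86.3 FPKM in untreated 22Rv1 and 0.190 FPKM in untreated PC3. Values are FPKM, fragment counts scaled to transcript length and library size. The sum of all FPKM still differed between libraries, from 335458 in untreated PC3 to 408628 in treated 22Rv1. Small differences between libraries therefore hang on the scaling.

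The 7 genes lie in a row on the plus strand of chromosome 22, within 151 kb (GRCh38, chr22:38952741-39104067), in the order A, B, C, D, F, G, H. By their principal transcripts, APOBEC3A, APOBEC3C and APOBEC3H have 199, 190 and 183 codons, and these are the members known to hold a single zinc-binding deaminase domain. APOBEC3B, APOBEC3D, APOBEC3F and APOBEC3G, with 382, 386, 373 and 384 codons, are known to hold a pair of such domains. The genes arose by duplication, so the origin of a read can be ambiguous. No stretch of 150 bases, the read length, in the longest coding transcripts of APOBEC3C and APOBEC3H occurred in another member. In the other members 5.17% to 17.8% of such stretches did, the most in APOBEC3B, where 14.8% also occurred in APOBEC3A. An annotated read-through gene that starts in APOBEC3C and runs through APOBEC3D (ENSG00000284554) holds 82.9% of the stretches of APOBEC3D. Reads of APOBEC3D, and of the shared parts of APOBEC3A and APOBEC3B, may therefore have been divided between rows. The annotated span of APOBEC3A, chr22:38952741-38992778, also runs over that of APOBEC3B, chr22:38982347-38992804.

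APOBEC3C, which acts in the cytoplasm and nucleus and restricts some retroelements, was among the most abundant mRNAs of PC3 and close to absent from 22Rv1. Its gene (ENSG00000244509) lies at chr22:39014083-39020352. It was listed at 0.00819 FPKM in treated and 0.00699 FPKM in untreated 22Rv1, against 428 FPKM in treated and 349 FPKM in untreated PC3. Both 22Rv1 values amount to under 1 read pair and lie below the 3 pairs taken as the limit of detection, which correspond to 0.0558 FPKM in treated and 0.0454 FPKM in untreated 22Rv1. A 22Rv1 level set at that limit would be 7677-fold below PC3 in the untreated and 7675-fold below it in the treated libraries. The 95% counting intervals of the ratios start lower, at 6243-fold for the untreated and 6241.5-fold for the treated libraries. Doubled depth is a setting added after the data were seen. With it, the values against the limit would be 15354-fold for the untreated and 15350-fold for the treated libraries. The intervals would then start at 8267-fold and 8265-fold. The libraries of the lines were far apart and did not overlap. Among 19922 protein-coding genes, APOBEC3C ranked 95th in treated and 89th in untreated PC3. In bulk RNA, fewer cells carrying a transcript and less transcript per cell cannot be told apart.

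APOBEC3B was the leading member in 22Rv1 and came after APOBEC3C in PC3. The protein is nuclear and is the member most often linked to mutations in tumour genomes. It was at 8.93 FPKM in treated and 7.09 FPKM in untreated 22Rv1, against 27.3 FPKM in treated and 29.1 FPKM in untreated PC3. The counting intervals ran from 7.97 to 9.97 and from 6.31 to 7.92 FPKM in 22Rv1, and from 25.9 to 28.8 and from 27.9 to 30.4 FPKM in PC3. Both PC3 libraries thus lay above both 22Rv1 libraries by more than counting error. The intervals of treated and untreated cells overlapped in PC3 and were separated by a narrow gap in 22Rv1. Its rank among protein-coding genes was 6188 and 7294 in treated and untreated 22Rv1, and 2521 and 2396 in treated and untreated PC3.

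APOBEC3F, which is packaged into virions and blocks viruses that lack a counter-factor, came next after APOBEC3B in both lines. It was at 1.44 FPKM in treated and 0.838 FPKM in untreated 22Rv1, against 5.02 FPKM in treated and 4.87 FPKM in untreated PC3. APOBEC3G, the best-known restriction factor of HIV, was at 0.0696 FPKM in treated and 0.0189 FPKM in untreated 22Rv1, against 2.47 FPKM in treated and 2.75 FPKM in untreated PC3. The 22Rv1 values of APOBEC3G are below the limit of 3 pairs in both libraries (with doubled depth the treated one would be at 4.88 pairs), and the PC3 values rest on 130 and 205 estimated pairs. APOBEC3D, which also acts against retroviruses, was at 0.369 FPKM in treated and 0.179 FPKM in untreated 22Rv1, against 1.78 FPKM in treated and 1.89 FPKM in untreated PC3. For all 3 of these genes the counting intervals of the lines did not overlap.

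APOBEC3A and APOBEC3H stayed under 1 FPKM in every library. APOBEC3A, a single-domain enzyme best known from myeloid cells and keratinocytes, was at 0.455 FPKM in treated and 0.166 FPKM in untreated 22Rv1, against 0.618 FPKM in treated and 0.633 FPKM in untreated PC3. Its intervals overlapped between treated 22Rv1 and both PC3 libraries. APOBEC3H, a single-domain member that varies in stability between people, was listed at 0 in both 22Rv1 libraries, against 0.111 FPKM in treated and 0.273 FPKM in untreated PC3. The PC3 values stand for 3.33 and 11.6 estimated pairs. By the 95% counting interval, a count of 0 in 22Rv1 allows up to 0.185 FPKM in the treated and 0.150 FPKM in the untreated library. The lines could therefore not be told apart in the treated pair.

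Of the members, APOBEC3H had an entry in the promoter table of RefSeq (GRCh38.p14), and the 250 bases before its RefSeq start, on the plus strand at chr22:39096994-39097243, are shown because it is the gene that stayed near 0 in all 4 libraries. The capitals mark the match to an NF-kB-type motif, spelled GGGA, then 4 bases of any kind, then CC, read here on the reverse strand; both strands were searched for every motif.
APOBEC3H: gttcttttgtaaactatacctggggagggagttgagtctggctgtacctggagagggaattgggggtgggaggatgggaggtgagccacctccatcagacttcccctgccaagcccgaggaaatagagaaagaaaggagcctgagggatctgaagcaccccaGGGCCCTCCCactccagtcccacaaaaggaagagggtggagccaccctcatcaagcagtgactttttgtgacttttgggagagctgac
That match begins 88 bases before the start, and 22.6% of 35116 promoter windows of equal length hold 1 or more. The interferon-type motif (GAAA, then 2 bases of any kind, then GAAA), the AP-1-type letters TGANTCA, the E2F-type letters TTTGGCGC and the TATA letters TATAAA were not in the window, against shares of 3.02%, 6.57%, 0.550% and 10.7% of all windows. The window holds 1 CG dinucleotide, where the median of all windows is 11. A match of this kind is a description and not a binding site.

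**Figure D1:**
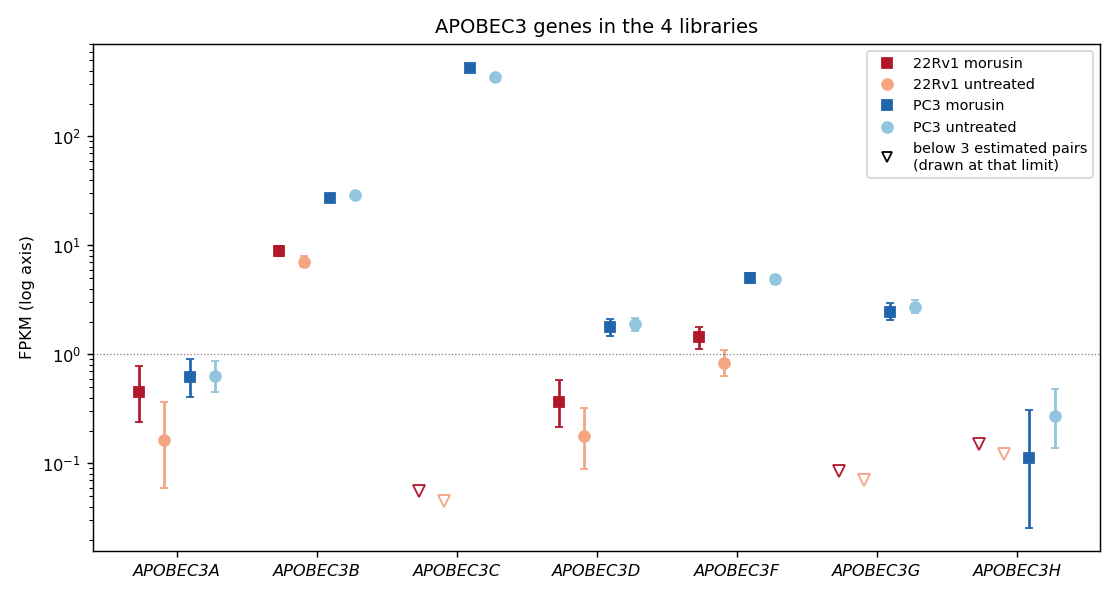
FPKM (log axis) of the 7 APOBEC3 genes in the 4 libraries, 22Rv1 in red shades and PC3 in blue shades, with 95% counting intervals from the inferred depth; open triangles stand for values below 3 estimated pairs and are drawn at that limit. APOBEC3C in PC3 lies at 428 and 349 FPKM, far above all other points, while its 22Rv1 values are below the limit.

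Summed over the 7 genes, the family came to 11.3 FPKM in treated and 8.29 FPKM in untreated 22Rv1, against 465 FPKM in treated and 388 FPKM in untreated PC3. APOBEC3C made up 91.98% and 89.8% of the sum in treated and untreated PC3. APOBEC3B made up 79.3% and 85.4% of it in treated and untreated 22Rv1. Without APOBEC3C the sums were 11.3 and 8.29 FPKM in treated and untreated 22Rv1, and 37.3 and 39.5 FPKM in treated and untreated PC3. The order of levels was C, B, F, G, D, A, H in both PC3 libraries. Among neighbours in that order, the counting intervals of G and D overlapped in treated PC3 and those of A and H in untreated PC3, while the others in PC3 were apart. In 22Rv1 the order was led by B and F, and A and D, whose intervals overlapped, changed places between the libraries.

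The values of all 7 members were lower in 22Rv1 than in PC3, in the untreated and in the treated libraries and under each alternative scaling. For APOBEC3A and APOBEC3H in the treated libraries the counting interval of the ratio includes no difference. On the log2 scale of FPKM + 1, used for all changes here, the untreated ratios of 22Rv1 over PC3 were -8.44 for APOBEC3C, -1.90 for APOBEC3B, -1.88 for APOBEC3G, -1.68 for APOBEC3F and -1.29 for APOBEC3D. The ratios were -0.49 for APOBEC3A and -0.35 for APOBEC3H. The 1 added to each value shrinks the ratio of low genes. Without it, APOBEC3B was 4.11-fold lower in untreated 22Rv1 (95% counting interval 3.65 to 4.65), APOBEC3F 5.81-fold (4.37 to 7.85) and APOBEC3D 10.5-fold (5.56 to 20.7). For APOBEC3G, whose 0.813 estimated pairs in untreated 22Rv1 are below the limit, the counting interval ran from 21.0-fold to 4694-fold lower. APOBEC3A was 3.82-fold lower (1.53 to 10.6).

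A 2-fold difference was reached by 5 members, all lower in 22Rv1. Of the 14363 genes that reached 1 FPKM in either library, 19.2% were lower in 22Rv1 by 2-fold or more and 19.8% were higher. APOBEC3A and APOBEC3H did not pass that minimum, and APOBEC3C, APOBEC3D, APOBEC3F and APOBEC3G passed it through PC3 alone, so the count says nothing beyond their values. In the treated libraries, where the doses differ, the ratios of 22Rv1 over PC3 were -8.73 for APOBEC3C, -1.70 for APOBEC3G, -1.51 for APOBEC3B, -1.31 for APOBEC3F and -1.02 for APOBEC3D. These 5 were at least 2-fold lower in 22Rv1, as were 18.6% of 14546 genes, with 25.5% higher. Here APOBEC3C, APOBEC3D and APOBEC3G passed the minimum through PC3 alone, so this count too says nothing beyond their values. With a pseudocount of 5 in place of 1, the count was 2 of the members in either comparison.

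**Figure D2:**
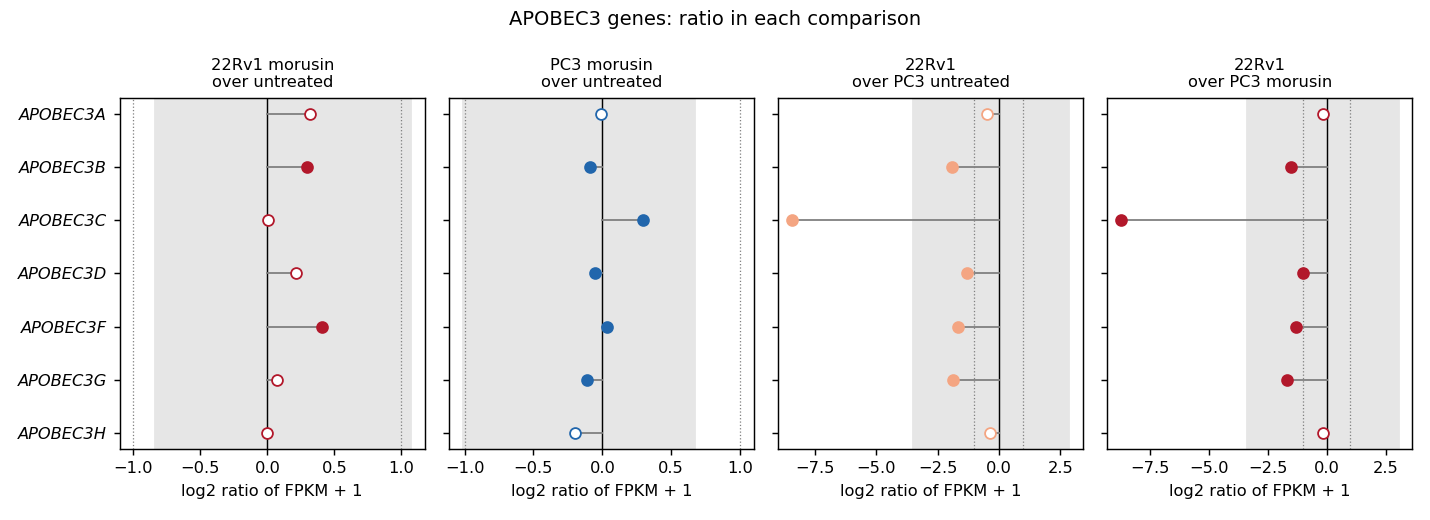
Log2 ratio of FPKM + 1 of each APOBEC3 gene in the 4 comparisons named above the panels; filled points passed the minimum of 1 FPKM, the grey band holds the central 95% of all genes compared, and dotted lines mark 2-fold. The morusin ratios lie between -0.20 and 0.41 in both lines, whereas APOBEC3C lies at -8.44 and -8.73 between the lines; the axes differ in width.

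Morusin left every member within 2-fold of its untreated level in both lines on this scale. In 22Rv1 the 2 members that passed the minimum were APOBEC3F, with a log2 change of 0.41, and APOBEC3B, with 0.30. Neither was at 2-fold, a size passed upwards by 3.48% and downwards by 1.02% of 13361 genes. Without the added 1, APOBEC3F was at 1.71 times its untreated FPKM (95% counting interval 1.19 to 2.49) and APOBEC3B at 1.26 times (1.07 to 1.48). Low-level members also had higher FPKM in treated 22Rv1, APOBEC3A at 2.74 times (0.943 to 8.53) and APOBEC3D at 2.06 times (0.898 to 4.71), with intervals that include no change. With doubled depth these 2 intervals would be 1.39 to 6.51 for APOBEC3A and 1.20 to 3.79 for APOBEC3D. The sum of all FPKM was 408628 in treated and 356195 in untreated 22Rv1. With the libraries rescaled to equal sums the log2 change of APOBEC3B in 22Rv1 fell to 0.12. No counting interval was drawn at that scaling, so whether this change exceeds counting error was not tested.

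In PC3 the changes on the log2 scale of FPKM + 1 were small and of mixed sign. APOBEC3C was at 1.23 times its untreated FPKM (95% counting interval 1.21 to 1.25), a log2 change of 0.29 that was between 0.20 and 0.44 over the alternative settings. APOBEC3F had a log2 change of 0.04, APOBEC3D of -0.06, APOBEC3B of -0.09 and APOBEC3G of -0.11, and their FPKM ratios had intervals that include 1. With doubled depth that of APOBEC3B would be 0.895 to 0.984. These signs hang on the scaling: with equal medians the values of APOBEC3A, APOBEC3B and APOBEC3D were 0.046, 0.057 and 0.042, and with equal sums that of APOBEC3F was -0.045. No member was at 2-fold on this scale, a size passed upwards by 1.24% and downwards by 2.64% of 12907 genes. Without the added 1, the low-level APOBEC3H was at 0.409 times its untreated FPKM (0.0642 to 1.31). This interval, from 3.33 treated and 11.6 untreated estimated pairs, includes no change.

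The response shared by both lines allowed a test, with line as a block and treatment as the tested term in limma on log2(FPKM + 1). This fit has 1 residual degree of freedom and borrows the spread from all genes. Of 13980 genes, 82 passed an adjusted p of 0.05, which is 0.587%, and none of the 5 members tested was among them. At an unadjusted p under 0.05 there were 18.5% of genes and again 0 members. The largest estimate was that of APOBEC3F at 0.22 ± 0.21 (SE), with limma's adjusted p = 0.601. APOBEC3C stood at 0.15 ± 0.20 (adjusted p = 0.727), APOBEC3B at 0.10 ± 0.21 (adjusted p = 0.821), APOBEC3D at 0.08 ± 0.17 (adjusted p = 0.825) and APOBEC3G at -0.02 ± 0.16 (adjusted p = 0.957). APOBEC3A and APOBEC3H had too low a level to be tested.

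The nearest measured genes on either side of the cluster, CBX6 and CBX7, were higher in 22Rv1. Within 500 kb of either end lie 24 other protein-coding genes with a row, of which 20 had 1 FPKM or more in an untreated library. Of these, 8 were higher in untreated 22Rv1 by 2-fold or more and 1 was lower by as much, with a median log2 ratio of 0.91. The 8 include DMC1 and MGAT3, which passed the minimum through 22Rv1 alone and so had to be higher there. The count is therefore only a description. Over all genes the shares were 19.8% higher and 19.2% lower, and the median was 0.11. CBX6 and CBX7, which code for Polycomb chromobox proteins and flank the cluster on its left and right, were at 32.6 and 11.2 FPKM in untreated 22Rv1, against 15.3 and 4.15 FPKM in untreated PC3. The log2 ratios of these flanking genes were 1.04 and 1.24, while the 7 members between them were all below 0. The gene lower in 22Rv1 was KDELR3, a receptor that returns proteins to the endoplasmic reticulum, at 1.08 FPKM in 22Rv1 and 13.0 FPKM in PC3. The meiotic recombinase gene DMC1 had the widest gap in the other direction, at 6.35 FPKM in untreated 22Rv1 and 0.0435 FPKM in untreated PC3.

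The flanking genes and the members also had different values under morusin in PC3. CBX6 was at 3.54 FPKM in treated and 15.3 FPKM in untreated PC3, a log2 change of -1.85, and it was the 1 neighbour of 18 measured at 2-fold, where 2.64% of all genes were lower by that size and 1.24% higher. CBX7 was at 1.73 FPKM in treated and 4.15 FPKM in untreated PC3, and the nuclear envelope gene SUN2 at 7.64 FPKM in treated and 15.0 FPKM in untreated PC3, with log2 changes of -0.92 and -0.89. The 18 measured neighbours ran from -1.85 to 0.39 in PC3. Their median log2 change was -0.05, as was that of all genes. The members between CBX6 and CBX7 had changes from -0.20 to 0.29 in PC3. In 22Rv1 CBX6 changed by -0.61 and CBX7 by -0.28, and no neighbour was at 2-fold. The shared estimate for CBX6 was -1.23 ± 0.29 (SE), with limma's adjusted p = 0.119.

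**Figure D3:**
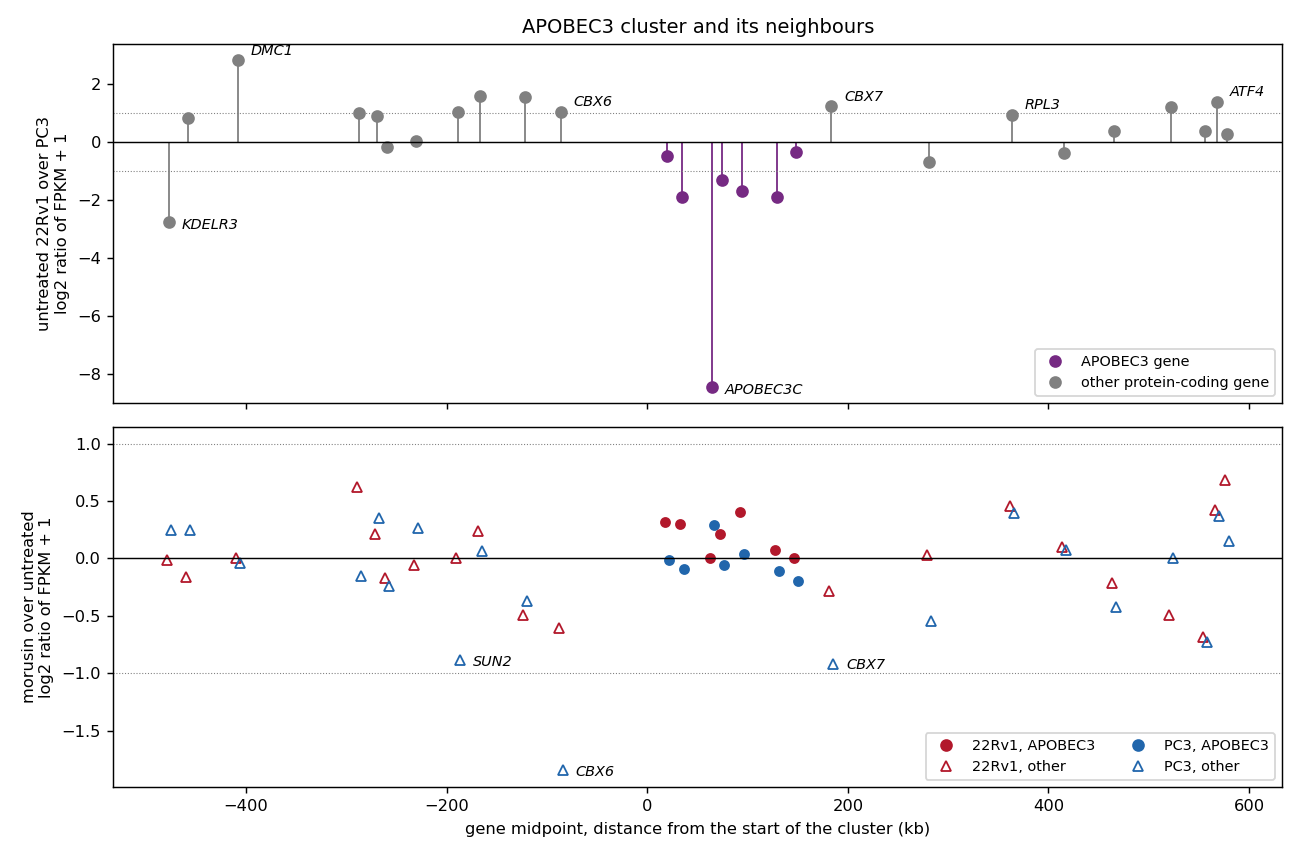
Log2 ratios of FPKM + 1 for protein-coding genes by the distance of their midpoint from the start of the APOBEC3 cluster in kb, with untreated 22Rv1 over PC3 above and morusin over untreated in each line below; genes under 1 FPKM in both untreated libraries are left out unless they are members. The members are all below 0 in the upper panel, while CBX6 and CBX7 on either side are at 1.04 and 1.24.

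The genes whose levels over the 4 libraries were most like those of APOBEC3C were sought by the Euclidean distance of log2(FPKM + 1) among 19823 protein-coding genes. The nearest was MSMP, a secreted protein of the microseminoprotein family, at a distance of 0.29. PLAU, the urokinase protease, followed at 0.36 and FOSL1, an AP-1 subunit, at 0.50. S100A16, a calcium-binding protein, was at 0.79 and KRT7, a simple-epithelial keratin, at 0.80. All 5 were under 0.5 FPKM in both 22Rv1 libraries and between 256 and 499 FPKM in the PC3 libraries, and none is on chromosome 22. With 4 libraries, this likeness describes little more than the gap between the lines.

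Of 8 relatives and cofactors of the APOBEC enzymes outside the family, 3 were measured. Of these, 2 were higher in untreated 22Rv1 by 2-fold or more, where 19.8% of all genes were. Both, RBM47 and A1CF, passed the minimum through 22Rv1 alone, so the count says nothing beyond their values. APOBEC1, an mRNA editing enzyme, APOBEC2, APOBEC4 and the APOBEC1 cofactor gene RBM46 were listed at 0 in all 4 libraries. Another cofactor gene, RBM47, was at 9.11 and 15.9 FPKM in treated and untreated 22Rv1, against 0.586 and 0.945 FPKM in treated and untreated PC3. The cofactor gene A1CF was at 1.04 and 2.497 FPKM in treated and untreated 22Rv1, against 0.0276 and 0.0294 FPKM in treated and untreated PC3. The third measured cofactor gene, SYNCRIP, was at 55.5 FPKM in untreated 22Rv1 and 46.6 FPKM in untreated PC3. Among 11 other RNA and nucleoside deaminases, 10 were measured, and 3 were at least 2-fold lower in untreated 22Rv1 with none at least 2-fold higher, where all genes gave 19.2% and 19.8%, so the count is near the background. They were CDA, the cytidine deaminase of nucleoside salvage, listed at 0 in untreated 22Rv1 and at 15.3 FPKM in untreated PC3, the adenosine deaminase gene ADA, at 0.139 FPKM in untreated 22Rv1 and 6.20 FPKM in untreated PC3, and the RNA editing gene ADARB1, at 8.21 FPKM in untreated 22Rv1 and 34.6 FPKM in untreated PC3. No gene of these lists was at 2-fold under morusin in either line.

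Of 18 uracil and abasic site repair genes, all measured, 7 were at least 2-fold higher in untreated 22Rv1 and none at least 2-fold lower, with a median log2 ratio of 0.62, against 0.11 for all genes and a background of 19.8% of genes higher. UNG, the main uracil-DNA glycosylase, was at 115 FPKM in untreated 22Rv1 and 30.95 FPKM in untreated PC3. TDG, a glycosylase for mismatched thymine and uracil, was at 49.5 FPKM in untreated 22Rv1 and 12.8 FPKM in untreated PC3, LIG1, a DNA ligase, at 63.4 FPKM in untreated 22Rv1 and 10.8 FPKM in untreated PC3, and LIG3, the ligase that works with XRCC1, at 19.4 FPKM in untreated 22Rv1 and 5.22 FPKM in untreated PC3. Under morusin the median log2 change of the list was -0.11 in 22Rv1 and 0.13 in PC3.

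Other restriction factors and interferon signalling genes were, as the APOBEC3 genes were, mostly lower in 22Rv1. Of 19 other restriction factors 15 were measured, and 12 were at least 2-fold lower in untreated 22Rv1 and none at least 2-fold higher (median log2 ratio -1.76). OAS1, which makes the activator of an antiviral RNase, was listed at 0 in untreated 22Rv1 and at 17.5 FPKM in untreated PC3. IFITM3, which blocks virus entry, was at 7.36 FPKM in untreated 22Rv1 and 121 FPKM in untreated PC3, MX1, an antiviral GTPase, at 0.635 FPKM in untreated 22Rv1 and 8.23 FPKM in untreated PC3, and SLFN5, a Schlafen family member, at 0.0579 FPKM in untreated 22Rv1 and 4.78 FPKM in untreated PC3. Of 22 interferon receptor and signalling genes 21 were measured, with 11 at least 2-fold lower and none at least 2-fold higher (median -1.14). The DNA sensor gene CGAS was at 0.0226 FPKM in untreated 22Rv1 and 7.85 FPKM in untreated PC3, and its adaptor gene STING1 was listed at 0 in untreated 22Rv1 and at 6.89 FPKM in untreated PC3. JAK1, a kinase of interferon receptors, was at 1.08 FPKM in untreated 22Rv1 and 19.0 FPKM in untreated PC3, and IRF7, an interferon-induced transcription factor, at 1.52 FPKM in untreated 22Rv1 and 20.9 FPKM in untreated PC3. Genes of both lists that passed the minimum through PC3 alone had to be lower in 22Rv1 to some degree, so the counts are read beside the background of 19.2% only as a description.

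Under morusin few genes of these lists were at 2-fold. No other restriction factor was at 2-fold in either line (median log2 change -0.21 in 22Rv1 and -0.11 in PC3). Of the interferon genes, TYK2, a receptor kinase, was at 44.0 FPKM in treated and 21.5 FPKM in untreated 22Rv1. Its log2 change of 1.0002 only just reached the threshold, so this call may hang on the scaling. MAVS, an adaptor of RNA sensing, was at 7.53 FPKM in treated and 23.2 FPKM in untreated PC3. TYK2 and MAVS were named after their values were seen and were the only genes of that list at 2-fold in their line.

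A further pair of lists holds genes known to act on APOBEC3B. Of 15 NF-kB and protein kinase C genes 14 were measured, of which 1 was higher and 2 were lower in untreated 22Rv1 by 2-fold or more (median -0.07). Over all genes 19.8% were higher and 19.2% lower, so these counts do not exceed the background. Of the genes named here, RELB passed the minimum through PC3 alone. RELB, a subunit of the alternative NF-kB pathway, was at 0.494 FPKM in untreated 22Rv1 and 3.40 FPKM in untreated PC3, and PRKCA, the alpha isoform of protein kinase C, at 4.81 FPKM in untreated 22Rv1 and 14.3 FPKM in untreated PC3. PRKCD, the delta isoform, was at 48.3 FPKM in untreated 22Rv1 and 14.6 FPKM in untreated PC3. NFKBIA, the NF-kB inhibitor that NF-kB itself induces, was at 97.5 FPKM in treated and 40.9 FPKM in untreated PC3. It was the 1 gene of the list at 2-fold under morusin, a size passed upwards in PC3 by 1.24% of all genes. APOBEC3B was at 27.3 FPKM in treated and 29.1 FPKM in untreated PC3. Of 19 E2F, DREAM and MuvB genes, which repress or activate cell cycle genes, 4 were at least 2-fold higher in untreated 22Rv1 and none at least 2-fold lower (median 0.58), a share close to the 19.8% of all genes. Among them was E2F2, at 16.7 FPKM in 22Rv1 and 1.54 FPKM in PC3. No gene of this list was at 2-fold under morusin, with medians of -0.30 in 22Rv1 and 0.16 in PC3. No gene of any list beside the family passed the shared test in limma.

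**Figure D4:**
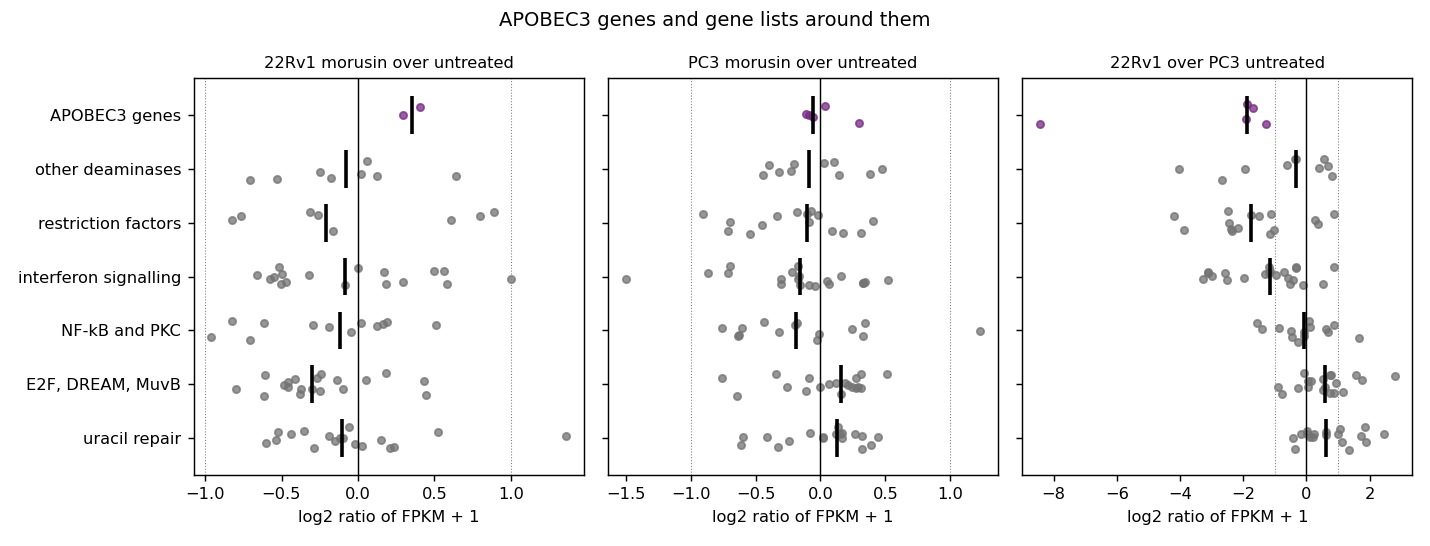
Log2 ratios of FPKM + 1 of the measured genes of 7 lists, 1 point per gene with the list's median as a bar, for morusin over untreated in 22Rv1, the same in PC3, and untreated 22Rv1 over untreated PC3; dotted lines mark 2-fold. In the right panel the medians are -1.76 for other restriction factors and -1.14 for interferon signalling, and 0.62 for uracil repair.

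APOBEC3 genes are abundant in leukocytes, so markers of other cell types were read beside them. Of 8 leukocyte markers, all were under 1 FPKM in both 22Rv1 libraries and 7 were under 1 FPKM in both PC3 libraries, and 3 to 4 were listed at 0 in each. Their summed level was 0.737 and 0.810 FPKM in treated and untreated 22Rv1, against 40.1 and 26.3 FPKM in treated and untreated PC3, of which CD68, a lysosomal protein, made up 39.9 and 26.0 FPKM. The pan-leukocyte gene PTPRC and the lineage genes of T and B cells were among those under 1 FPKM. The 4 fibroblast markers summed to 1.34 and 1.001 FPKM in treated and untreated 22Rv1, against 1.83 and 3.44 FPKM in treated and untreated PC3. The 4 endothelial markers summed to 0.00612 FPKM in treated 22Rv1 and were all listed at 0 in untreated 22Rv1, against 1.58 and 1.78 FPKM in treated and untreated PC3. The part of CD68 and of these low levels in the line difference was not tested.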

How the data were processed

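Per the labels' protocols, libraries were made with a TruSeq RNA v2 kit and read as paired reads of 150 bases. Per the submitters' processing notes, the tools were Trimmomatic, HISAT2 and StringTie and the build was GRCh38. Their versions, the annotation release and the strand setting are not stated, so antisense and overlapping reads cannot be told apart. The authors deposited FPKM values, 1 column per library, scaled to each library's own total. No count model was applied to them. Depth was inferred from FPKM times length of single-exon genes of 600 to 5000 bases, at the most frequent step together with the halved step (tolerance 1.5%). Pairs per gene use the longest coding transcript of GENCODE 29.

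Changes are log2 ratios of FPKM + 1, for genes that reach 1 FPKM in either library compared (in 2 or more of 4 for limma), with 2-fold as the threshold within single libraries. With 1 library per group there is no test within a line. The line term was not tested, because the family was chosen on that difference. The fit was tested on simulated data first. The shared response was fitted with limma (mean trend, Benjamini-Hochberg at 0.05), with line as the block, since libraries of a line come from the same cells. Counting intervals are exact (Poisson for a level, Clopper-Pearson for a ratio). A symbol found on several rows was read from its row of highest mean. The members and lists were chosen with earlier results of these data known. Genes named are the members, up to 4 per list by their largest ratio, neighbours within 500 kb and the 5 nearest to APOBEC3C, and those that add nothing are left out. Some listed genes are not reported here. Alternatives were pseudocounts of 0.1 and 5, libraries rescaled to equal sums or equal medians, no filter, no block and no trend, and doubled depth was added after seeing the data. Python 3.11.15, numpy 2.4.6, pandas 2.3.3, scipy 1.17.1, matplotlib 3.10.9, R 4.3.3 and limma 3.58.1 were used.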

Additional observations from a re-analysis of the deposited data

Results flagged for a closer look

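Some results had opposite signs under morusin in the 2 lines, each with 1 library per group, and the difference was not tested. The log2 change in 22Rv1 minus that in PC3 was 0.33 for APOBEC3A (0.32 in 22Rv1, -0.01 in PC3), 0.39 for APOBEC3B (0.30 in 22Rv1, -0.09 in PC3), 0.27 for APOBEC3D (0.21 in 22Rv1, -0.06 in PC3) and 0.18 for APOBEC3G (0.07 in 22Rv1, -0.11 in PC3). It was -1.31 for the cell cycle inhibitor gene CDKN1A (-0.80 in 22Rv1, 0.51 in PC3) and -1.42 for NFKBIA (-0.19 in 22Rv1, 1.23 in PC3). The opposite signs of the members are not firm. With equal medians the PC3 values of APOBEC3A, APOBEC3B and APOBEC3D were 0.046, 0.057 and 0.042, above 0 as in 22Rv1. The 22Rv1 values of APOBEC3G rest on 2.44 estimated pairs in treated and 0.813 in untreated cells, below the limit of 3 pairs.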

How the results depend on the processing

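The count of APOBEC3 members at 2-fold under morusin was 0 in both lines under all 5 alternatives. Except in the setting without a filter, members under 1 FPKM in both libraries compared were left out of it. APOBEC3A in 22Rv1, left out in this way, had a log2 change of 1.06 with a pseudocount of 0.1, past 2-fold. Between the lines the count stayed at 5 lower in 22Rv1, except with a pseudocount of 5 (2 untreated and 2 treated). No member passed the shared test under any of 7 alternatives (lowest adjusted p in limma 0.464). Its estimate for APOBEC3B was -0.032 with equal sums, and that for APOBEC3G was 0.18 with a pseudocount of 0.1 and 0.034 with equal medians; the cause was not tested. Without the replicate block (line) the shared test called 0 genes higher and 0 lower, and without a filter 0 and 0, against 49 and 33. It called 18 and 15 with a pseudocount of 5, 300 and 1234 with equal sums, 511 and 218 with equal medians, and 29 higher without the trend. The share of calls that were higher was 59.8% as deposited, 19.6% with equal sums and 70.1% with equal medians. Leaving out a library left no residual degree of freedom, so no such fit was run. Over all genes, 22Rv1 morusin counts (465 higher, 136 lower) became 844 and 376 with a pseudocount of 0.1, 151 and 33 with 5, and 255 and 351 with equal sums, where 42.1% of calls were higher against 77.4%. PC3 counts (160 and 341) became 259 and 680, and 74 and 85, with those pseudocounts, and 224 lower with equal medians, where 46.8% were higher against 31.9%. Between lines, a pseudocount of 5 gave 1322 higher and 1419 lower untreated (2849 and 2751 before), and 1771 and 1398 treated (3706 and 2708). Equal sums moved the median of all genes to -0.18 in 22Rv1 (-0.01 before), to -0.15 in the shared fit (-0.04) and to 0.02 between treated lines (0.20), and equal medians moved it to 0.08 in PC3 (-0.05) and to 0.06 between treated lines. Depth limits APOBEC3C and APOBEC3G in 22Rv1, and APOBEC3H in 22Rv1.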

Other observations

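A pair of pseudogene rows inside the APOBEC3 cluster had values in PC3 and none in 22Rv1. AL031846.1, a transcribed pseudogene between APOBEC3G and APOBEC3H, was at 5.04 FPKM in treated and 5.39 FPKM in untreated PC3 and listed at 0 in both 22Rv1 libraries, which places it above APOBEC3G in PC3. AL022318.2, a pseudogene between APOBEC3F and APOBEC3G, was at 0.358 and 0.490 FPKM in treated and untreated PC3 and listed at 0 in 22Rv1. The read-through row over APOBEC3C and APOBEC3D, AL022318.4, was at 0.0936 and 0.0890 FPKM in treated and untreated 22Rv1, against 0.333 and 0.647 FPKM in treated and untreated PC3. APOBEC3B-AS1, an antisense gene over the end of APOBEC3B, was listed at 0 in 3 of the 4 libraries and at 0.000362 FPKM in untreated PC3.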
